A study of Mus musculus with 48 samples.

Results

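The gp130 family receptor chains examined here were Osmr, Lifr, Il6st and Il11ra1, taken as listed symbols and looked up in the array's probe annotation. Of the 4 genes, 3 were measured among 10739 genes tested. No probe was annotated to Il11ra1, the alpha chain of the interleukin 11 receptor, by symbol, gene number or transcript, and that chain was not analysed here. For each measured gene the brightest probe above background was used, ILMN_2623280 for Osmr, ILMN_2829008 for Lifr and ILMN_2608184 for Il6st. Their other probes served as a check.

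Cytokines of this family signal through gp130, the shared chain encoded by Il6st, which has no kinase of its own and works through JAK kinases bound to its tail. Leukemia inhibitory factor (LIF) brings gp130 together with the LIF receptor chain Lifr, and oncostatin M (OSM) brings gp130 together with the OSM receptor chain Osmr or with Lifr. The phosphorylated tails recruit STAT3 and the ERK branch, and SOCS3 binds gp130 and dampens it. In bone, OSM and LIF are known to act on osteoblasts, the cells that form bone, and on the osteocytes that derive from them.

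The cells were primary osteoblasts from mouse calvaria, the skull cap. They came from wild-type mice (WT) or from Osmr-null mice (KO), both C57BL/6 and bred as litters of cousins. All cultures were frozen, thawed and differentiated for 17 days. They were then left untreated (control) or given 10 ng/ml of murine OSM (mOSM), human OSM (hOSM) or LIF (called mLIF here, after the titles) for 1 h or 6 h. The series' design states that hOSM and LIF reach mouse cells through LIFR alone, and that mOSM can use both OSMR and LIFR. This gave 16 groups of 3 bead arrays, 48 arrays in all, from 6 cultures of 8 arrays each. The labels call the LIF mouse in the titles and human in the treatment protocol, and call the cells osteocytes in one field and osteoblasts in another. The design text gives more thawing occasions than the 2 thawing days in the labels. No label ties the 3 cultures of a genotype to different animals, so the p-values cover the variation between these arrays, which may be technical.

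The stretch just upstream of each transcription start is shown because Osmr and Il6st both rose in WT cells given mOSM for 6 h and Lifr did not. The sequences are the 250 bases before the start in RefSeq's GRCm38.p6 annotation, given on the strand of the gene. The Osmr window lies at chr15:6874314-6874563 on the minus strand, that of Il6st at chr13:112463820-112464069 on the plus strand and that of Lifr at chr15:7129322-7129571 on the plus strand. Capitals mark the letters TTACGGGAA, read on either strand.
Osmr: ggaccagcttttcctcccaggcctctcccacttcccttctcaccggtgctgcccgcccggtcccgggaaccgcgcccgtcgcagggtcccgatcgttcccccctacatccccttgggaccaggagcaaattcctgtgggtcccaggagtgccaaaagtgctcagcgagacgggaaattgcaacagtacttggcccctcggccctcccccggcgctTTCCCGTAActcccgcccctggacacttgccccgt
Il6st: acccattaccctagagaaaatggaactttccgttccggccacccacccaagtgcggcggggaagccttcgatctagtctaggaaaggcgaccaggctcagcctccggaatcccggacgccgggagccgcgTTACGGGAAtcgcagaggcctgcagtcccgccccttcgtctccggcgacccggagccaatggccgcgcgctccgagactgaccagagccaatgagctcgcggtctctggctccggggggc
Lifr: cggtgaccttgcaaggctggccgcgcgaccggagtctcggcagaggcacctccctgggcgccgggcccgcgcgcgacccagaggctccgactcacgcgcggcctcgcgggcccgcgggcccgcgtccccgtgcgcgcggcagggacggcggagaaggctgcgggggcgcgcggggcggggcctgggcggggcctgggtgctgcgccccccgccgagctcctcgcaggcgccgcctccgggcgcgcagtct
The run TTACGGGAA was picked after the sequences had been read. It lay at positions -120 to -112 from the Il6st start and, on the opposite strand, at -35 to -27 from the Osmr start. It was in neither of the 2 Lifr windows, the other of which lies at chr15:7140292-7140541. Osmr and Il6st shared 2 runs of 10 letters, of which this is part of 1, and each Lifr window also shared 1 run of 10 letters with Il6st. Of 32851 upstream windows in the RefSeq table, 32 held TTACGGGAA on either strand, or 0.0974%. Of the 56 genes of the pathway lists below with a window, 0 held it, Socs3, Jak2, Il4ra and Bcl3 among them. The spaced palindrome TTCNNNGAA, the usual form of a STAT site, had no match on either strand in the 4 windows and was in 7.02% of all windows. The looser TTNNNNNAA, which both of the other motifs overlap, matched once in Osmr and once in Il6st, at the TTACGGGAA run, once in the second Lifr window, and in 55.2% of all windows. GC content was 66% in the Osmr and Il6st windows and 82.4% and 50.8% in the Lifr windows. These matches describe letters and not binding.

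The cells carried the osteoblast markers. Of 10 osteoblast genes listed, 8 were tested and 6, among them Col1a1, Alpl and Sp7, were above background on all 48 arrays. Of 8 osteocyte genes, 6 were tested. Phex, Pdpn, Cd44 and Ank were above background on all 48 arrays, Mepe on 12 and Dmp1 on 7, while Sost and Fgf23 were on 0. Of 7 chondrocyte genes 6 were tested. Col2a1, Comp and Sox9 were on all 48 arrays, Col9a1 on 40, Matn1 on 21, Acan on 16 and Col10a1 on 0. Of 8 adipocyte genes 7 were tested. Pparg and Lpl were on all 48 arrays, Adipoq on 40, Cidec on 37, Plin1 on 14, Fabp4 on 6 and Cd36 on 5. Of 12 macrophage and osteoclast genes 5 were tested. Cd14, Lyz2 and Ctsk were above background on all 48 arrays, Csf1r on 45 and Adgre1 on 28, while Ptprc, Itgam, Acp5, Calcr and Ocstamp were on 0. Of 7 endothelial genes 3 were tested, with Tek on 48 arrays, Kdr on 11 and Esam on 8, and with Pecam1, Cdh5, Emcn and Cldn5 on 0. Of 6 muscle genes 3 were tested, with Acta1 on 42 arrays, Des on 39 and Mylpf on 4, and with Myod1 and Ckm on 0. The median probe intensity ranged from 116.3 to 169.8 over the arrays, and 14231 to 16767 probes were above background.

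The KO culture of replicate 3 stood apart from the rest. On the first principal component, which held 29.7% of the variance, it averaged 60.5 and the other 5 cultures lay between -17.7 and -0.14. Its summed intensity over the 7 adipocyte markers tested was 2314, against 15949 in the other KO cultures and 20289 in WT. Over the 6 chondrocyte markers tested it was 39350, against 20150 and 22842. It also had the highest Osmr level of the KO cultures, a mean of 8.06 log2 units against 7.03 and 6.93, and the lowest Il6st level, 9.59 against 10.27 and 10.47. The main results that rest on KO arrays are therefore also given without it, and the part of cell composition in them was not tested. In these bulk samples, fewer cells of a type and less RNA per cell cannot be told apart.

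Osmr, the chain targeted by the knockout, was lower in every KO array than in every WT array. Its level, in log2 units of normalised probe intensity, ran from 9.48 to 12.21 with a median of 10.52 over the 24 WT arrays and from 6.26 to 8.72 with a median of 7.21 over the 24 KO arrays. The KO mean was lower by 3.32 ± 0.16 log2 units (SE), a 9.96-fold difference, with an adjusted p of 3.9e-17 by limma. In that comparison 20.4% of all genes passed, and with culture as a random block 1.86% did, among them Osmr with an adjusted p of 4.5e-11. Osmr had the lowest log2 difference of all 10739 genes. At 6 h it passed in each of the 4 conditions, at -3.08 in controls and -4.63 with mOSM, -3.25 with hOSM and -3.12 with mLIF. Without the KO culture of replicate 3 the value over all conditions was -3.68. Within beadchips that held both genotypes in a condition it ran from -4.29, with mOSM at 6 h, to -2.74, in controls at 1 h. It was -3.54 on the first thawing day and -2.87 on the second. The KO signal stayed above background on all 24 arrays. The sources used here do not say whether the probe lies within the deleted stretch, so the check shows lower signal at this probe and not the structure of the allele. The 2 other Osmr probes differed from it. ILMN_1247795 was above background on 13 of 24 WT arrays and 0 of 24 KO arrays, and ILMN_2583052 on 0 of 48.

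**Figure D1:**
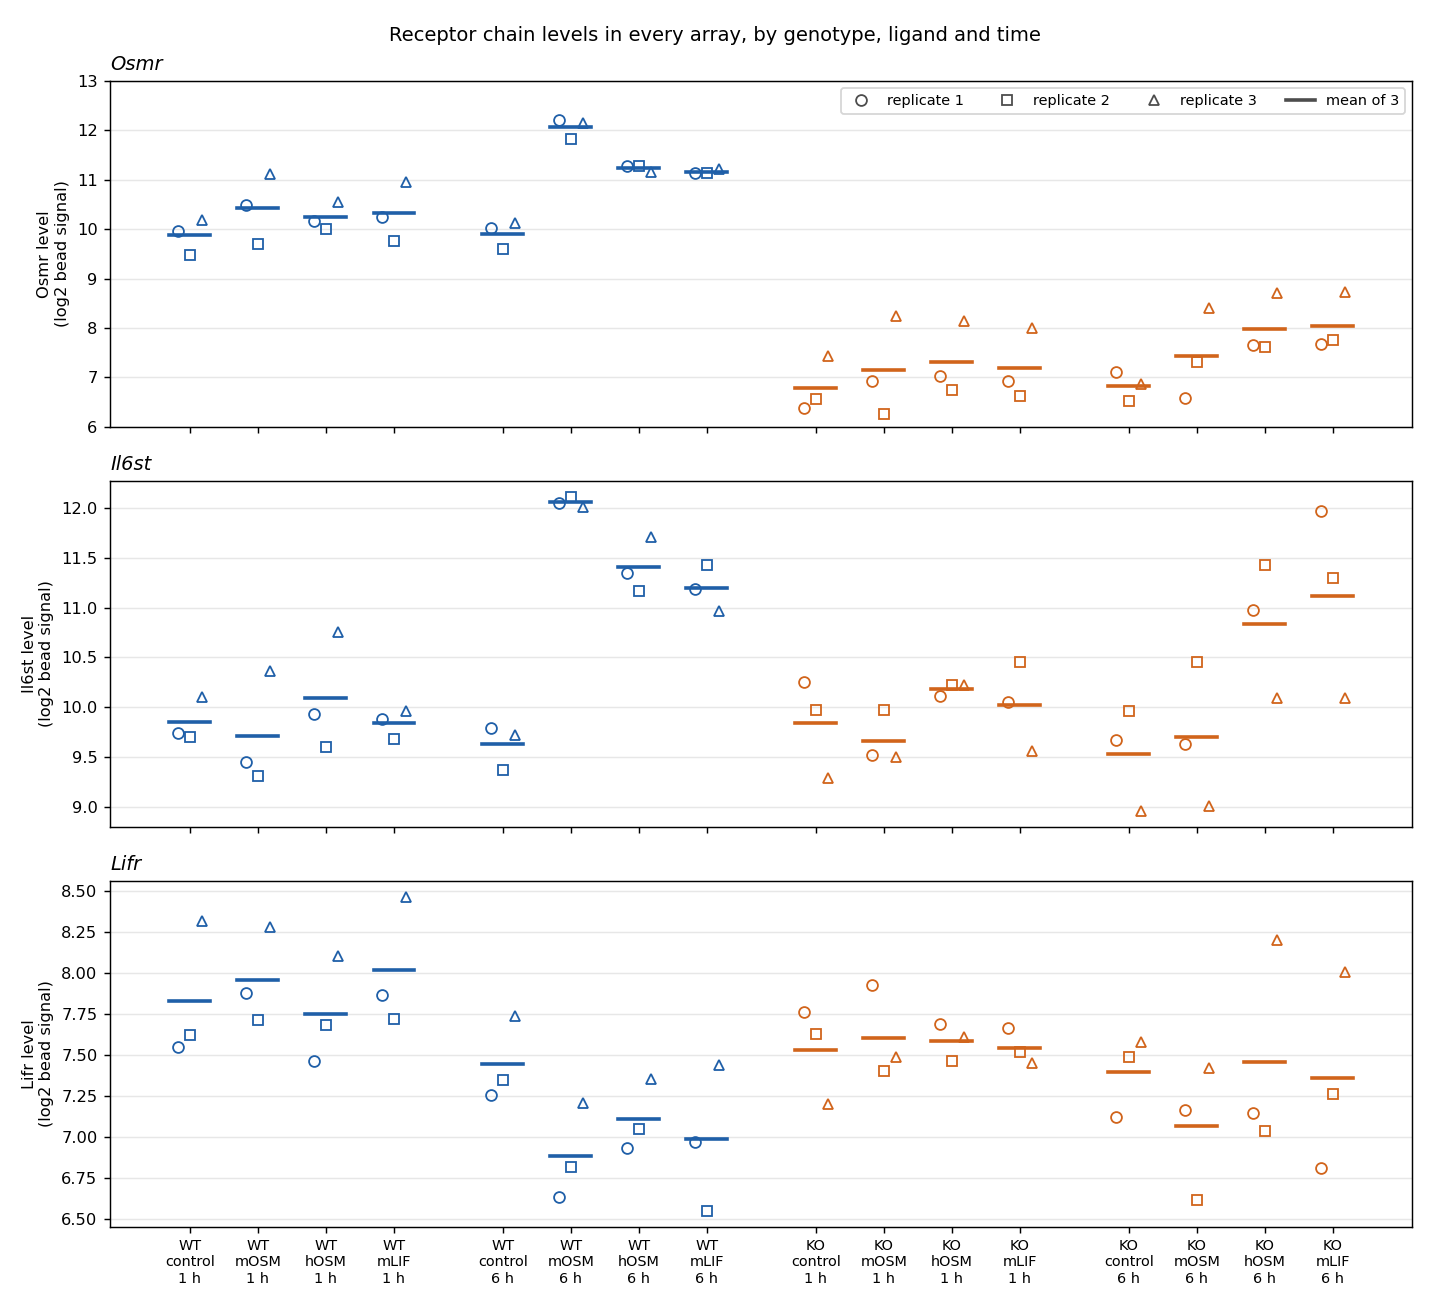
Level of Osmr, Il6st and Lifr (log2 bead signal after normalisation, vertical axis of each panel) in the 16 groups of genotype, ligand and time; each symbol is an array, its shape the replicate, and each bar the mean of 3. All KO points for Osmr, at most 8.72, lie below all WT points, at least 9.48, while the genotypes overlap for Lifr. For Il6st the WT groups at 6 h with a ligand have the highest means. The lowest of these, 11.19 with mLIF, overlaps KO mLIF at 6 h, 11.12.

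Osmr and Il6st rose together in WT cells after 6 h of mOSM. Osmr read 10.02, 9.60 and 10.12 log2 units in the 6 h controls of replicates 1 to 3 and 12.21, 11.83 and 12.14 with mOSM. The groups did not overlap and the difference was 2.15 ± 0.45 log2 units (SE), or 4.44-fold, with a limma adjusted p of 0.00039. Il6st read 9.79, 9.37 and 9.72 in those controls and 12.05, 12.11 and 12.01 with mOSM. It was higher by 2.43 ± 0.38 log2 units, or 5.38-fold, with an adjusted p of 6.7e-06, and the groups did not overlap. The share of all genes without overlap is not given, here or in the comparisons below. The response to mOSM at 6 h was broad, with 27.5% of all genes passing, 12% higher and 15.6% lower. Ranked by the log2 difference from the highest, Il6st was gene 105 and Osmr gene 141 of 10739. In the 3 cultures the Osmr difference was 2.20, 2.23 and 2.03 and the Il6st difference 2.25, 2.74 and 2.29. With the beadchip as a block the differences were 2.35 (adjusted p = 9e-04) and 2.22 (adjusted p = 0.00032), and within the beadchip that held both groups they were 2.42 and 2.71.

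Lifr read lower with mOSM in each of the same cultures, with no call in the fit without a block. It read 7.26, 7.35 and 7.74 in the WT controls at 6 h and 6.64, 6.82 and 7.21 with mOSM, with no overlap between the groups. The difference was -0.56 ± 0.29 log2 units, 1.47-fold lower, and did not pass the test, with an adjusted p of 0.16. It was -0.62, -0.53 and -0.53 in the 3 cultures. With culture as a block it passed, with an adjusted p of 0.038, in a fit in which 45.2% of all genes passed. With the beadchip as a block the value was -0.42 with an adjusted p of 0.37. The median difference over all genes in this comparison was -0.08.

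The human ligand and LIF, which the design text assigns to LIFR, were followed by higher Il6st in WT cells. With hOSM at 6 h Il6st read 11.34, 11.17 and 11.71 and with mLIF 11.19, 11.43 and 10.97, against 9.37 to 9.79 in the shared controls. The difference was 1.78 ± 0.38 log2 units for hOSM, 3.43-fold, with an adjusted p of 0.015, and 1.56 ± 0.38 for mLIF, 2.96-fold, with an adjusted p of 0.046. In this fit without a block 0.661% of all genes passed with hOSM and 0.475% with mLIF. Both ligand groups were compared with the same 3 control arrays. The mLIF call was lost when any of its 6 arrays was left out, with values from 1.44 to 1.68. The hOSM call was lost without the control of replicate 2 (1.65, adjusted p = 0.11) or replicate 3 (1.82, adjusted p = 0.052), or without the hOSM array of replicate 3 (1.62, adjusted p = 0.11). The culture block gave adjusted p-values of 2.1e-05 for hOSM and 0.00013 for mLIF, where 5.62% and 5.46% of all genes passed. The beadchip block gave 1.96 for hOSM (adjusted p = 0.028) and 1.50 for mLIF (adjusted p = 0.13), with 1.62 for hOSM and 2.05 and 1.24 for mLIF within single beadchips.

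Osmr also read higher with these ligands in WT cells, with no call in the fit without a block. It read 11.28, 11.28 and 11.16 log2 units with hOSM and 11.13, 11.14 and 11.23 with mLIF, all above the highest of the 6 h controls, 10.12. The differences were 1.33 ± 0.45 and 1.26 ± 0.45 log2 units, with adjusted p-values of 0.29 and 0.35. Under the culture block they were 0.00051 and 0.0011, and 5.62% and 5.46% of all genes passed. Lifr differed from control by -0.33 ± 0.29 with hOSM and by -0.46 ± 0.29 with mLIF, and neither passed in either fit.

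In KO cells mOSM at 6 h was followed by no call for any of the 3 chains. Il6st read 9.67, 9.97 and 8.96 in the KO controls of replicates 1 to 3 and 9.63, 10.45 and 9.00 with mOSM. These groups overlapped, and the difference was 0.17 ± 0.38 log2 units with a 95% confidence interval from -0.60 to 0.93. It was 0.23 without the KO culture of replicate 3. Osmr read 7.10, 6.53 and 6.86 in the KO controls and 6.57, 7.32 and 8.39 with mOSM. The Osmr difference of 0.60 ± 0.45 had an adjusted p of 1 and differed in sign among the cultures, at -0.53, 0.79 and 1.54. It was 0.13 without the KO culture of replicate 3. Lifr differed by -0.33 ± 0.29, or -0.42 without that culture, with an adjusted p of 1 in both. In this comparison limma called 0 of all genes, 0%, while 201 genes had an unadjusted p under 0.05 and 4 passed with culture as a block, or 0.0372%.

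The KO cells still had higher Il6st with mLIF. Their 6 h values were 11.97, 11.29 and 10.09 with mLIF and 10.97, 11.43 and 10.09 with hOSM, and each was above the control of its own culture. The mLIF difference was 1.59 ± 0.38 log2 units, 3.01-fold, with an adjusted p of 0.027, in a comparison in which 0.931% of genes passed. It was 2.31, 1.33 and 1.13 in the 3 cultures. Leaving out a single array gave values from 1.16 to 2.10, and the call was lost without the mLIF array of replicate 1 (1.16, adjusted p = 0.22) or replicate 2 (1.50, adjusted p = 0.11) and without the control of replicate 1 (adjusted p = 0.065) or replicate 3 (1.30, adjusted p = 0.20). It was 1.82 without the KO culture of replicate 3 (adjusted p = 0.0039) and 1.34 with the beadchip as a block (adjusted p = 0.27). The hOSM difference was 1.30 ± 0.38 with an adjusted p of 0.11, where 0.829% of genes passed. It passed with culture as a block (adjusted p = 0.0013) and without the KO culture of replicate 3 (1.38, adjusted p = 0.04).

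The remaining Osmr signal in KO cells read higher with the same ligands, with a call only under the culture block. It read 7.65, 7.60 and 8.70 log2 units with hOSM and 7.67, 7.75 and 8.72 with mLIF at 6 h, above the highest KO control at that time, 7.10. The differences were 1.16 ± 0.45 and 1.22 ± 0.45, with adjusted p-values of 0.37 and 0.29. With culture as a block they were 0.0024 and 0.0013, in fits that called 7% and 7.9% of all genes. Without the KO culture of replicate 3 the differences were 0.81 and 0.89, with adjusted p-values of 0.53 and 0.31. Lifr differed from control by 0.06 with hOSM and by -0.04 with mLIF, neither of which passed.

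**Figure D2:**
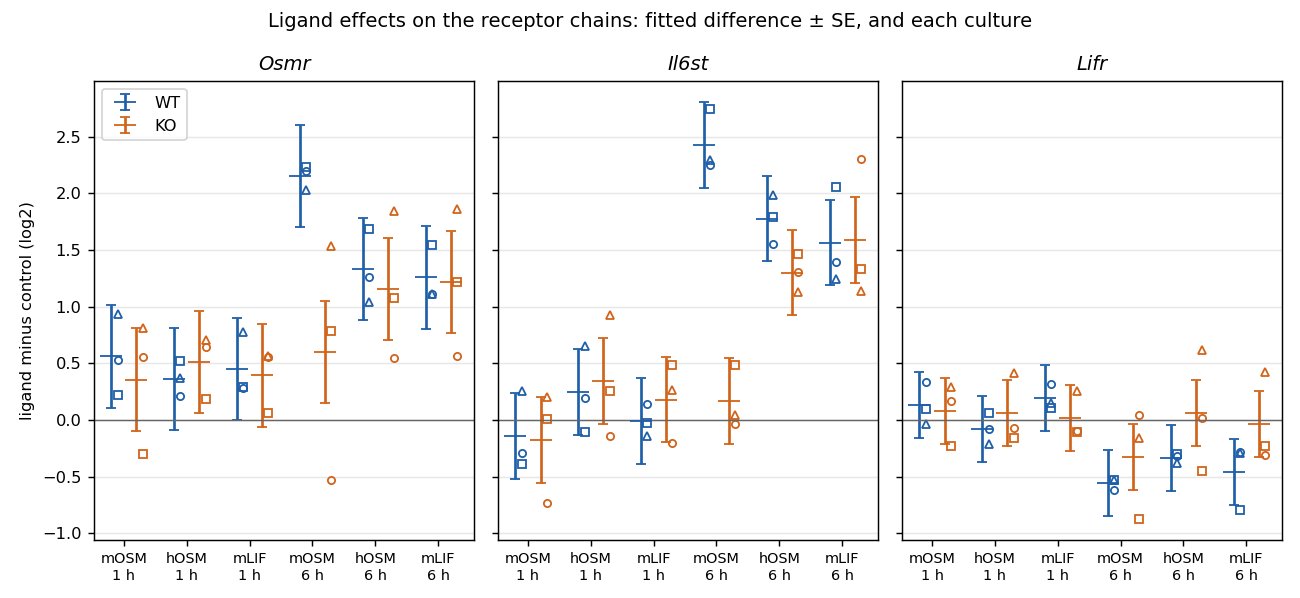
Difference from the control of the same genotype and time (log2 units, vertical axis) for Osmr, Il6st and Lifr, a panel each, with each ligand at 1 h and 6 h; bars are the fitted difference ± SE without a block and open symbols the 3 cultures. In WT cells at 6 h Il6st lies at 2.43 with mOSM, 1.78 with hOSM and 1.56 with mLIF, and in KO cells at 0.17, 1.30 and 1.59.

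The dependence of the mOSM response on genotype was tested directly for each chain. For Il6st the mOSM effect at 6 h was 2.26 ± 0.54 log2 units smaller in KO than in WT cells, an interaction of -2.26 with an adjusted p of 0.0047, where 9.68% of all genes passed. It was -2.29, -2.25 and -2.24 for the cultures of replicates 1, 2 and 3, whose numbers share a thawing day between the genotypes and no other label. Leaving out any single array gave -2.64 to -1.92, all of which passed, and leaving out the KO culture of replicate 3 gave -2.20 with an adjusted p of 0.00069. It was -2.32 with the beadchip as a block (adjusted p = 0.01), -2.27 on the first thawing day and -2.24 on the second. For Osmr the interaction was -1.55 ± 0.64 with an adjusted p of 0.13. It passed with culture as a block (adjusted p = 0.001, where 26.3% of all genes passed) and without the KO culture of replicate 3 (-2.02, adjusted p = 0.0025). Leaving out only the KO mOSM array of replicate 3 also gave a call, at -2.04 and an adjusted p of 0.039. For Lifr it was 0.23 ± 0.41 with an adjusted p of 0.83. At the other Lifr probes, ILMN_1242960 and ILMN_2829015, the interaction was 0.90 and 0.89, with adjusted p-values of 0.30 and 0.38. With culture as a block these p-values were 0.047 and 0.14. Some of the arrays compared were below background at both probes.

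No chain passed the same test for hOSM or mLIF. For Il6st the interaction was -0.48 for hOSM, with a 95% confidence interval from -1.56 to 0.61, and 0.02 for mLIF, from -1.06 to 1.11. For Osmr it was -0.17, from -1.47 to 1.12, and -0.04, from -1.34 to 1.26. For Lifr it was 0.40, from -0.44 to 1.23, and 0.42, from -0.41 to 1.26. In both comparisons limma called 0% of genes, with 79 and 97 genes at an unadjusted p under 0.05, and the intervals leave room for sizeable differences. Without the KO culture of replicate 3 these interactions were -0.39 and 0.25 for Il6st, -0.52 and -0.37 for Osmr and 0.12 and 0.19 for Lifr, each with an adjusted p of 1. The direct KO minus WT difference in Il6st was -2.36 ± 0.38 with mOSM at 6 h, 5.14-fold lower, with an adjusted p of 1.1e-05, where 26.4% of genes passed. It was -2.02 with an adjusted p of 8.4e-06 when the KO culture of replicate 3 was left out. At 6 h it was -0.10 in controls, -0.58 with hOSM and -0.08 with mLIF and did not pass, in comparisons that called 0.0279%, 0.0186% and 0.00931% of genes. The same 3 values were 0.19, -0.21 and 0.44 without that culture and did not pass. The Lifr difference between the genotypes over all 24 arrays of each did not pass, at -0.05 ± 0.10 with a 95% confidence interval from -0.26 to 0.16. That interval treats arrays of the same culture as independent. With culture as a random block it ran from -0.48 to 0.37. The difference was -0.14 without the KO culture of replicate 3. For Il6st the difference over all arrays was -0.36 ± 0.13 and did not pass, with an adjusted p of 0.051. With culture as a random block the 95% confidence interval ran from -0.87 to 0.15 and the limma adjusted p was 0.74. Leaving out the KO culture of replicate 3 gave -0.10.

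The ligands were also set against each other at 6 h, where dose and time matched. In WT cells mOSM gave higher values than hOSM by 0.82 ± 0.45 log2 units for Osmr and 0.65 ± 0.38 for Il6st, and higher values than mLIF by 0.90 ± 0.45 and 0.86 ± 0.38. None of these 4 differences passed without a block, where the adjusted p-values were 0.24, 0.28, 0.20 and 0.13 and 15.9% and 15.4% of all genes passed. The groups did not overlap in any of them, but the share of all genes without overlap is not given here. All 4 comparisons use the same 3 mOSM arrays. With culture as a block the adjusted p-values were 0.0098, 0.053, 0.0052 and 0.011, and 33.1% and 31.5% of all genes passed. In KO cells the order of the means was the opposite. Il6st was lower with mOSM than with hOSM by 1.13 ± 0.38 and than with mLIF by 1.42 ± 0.38. These had adjusted p-values of 0.57 and 0.14 without a block, where 0.186% of genes passed in each comparison. With the culture block the adjusted p-values were 0.013 and 0.0011, and 1.69% and 2.32% passed. Without the KO culture of replicate 3 they were 0.23 and 0.023.

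No chain passed between hOSM and mLIF. In WT cells hOSM minus mLIF was 0.07 for Osmr, with a 95% confidence interval from -0.84 to 0.99, and 0.21 for Il6st, from -0.56 to 0.98. For Lifr it was 0.13, from -0.46 to 0.72. In KO cells it was -0.06, -0.29 and 0.10 in the same order. For these comparisons limma called 0% of genes in either genotype, with 113 genes in WT and 111 in KO at an unadjusted p under 0.05. An interval of this width does not show that the ligands act alike.

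The rise of Il6st was called at 6 h and not at 1 h. At 1 h none of the 9 WT differences from control over the 3 chains and 3 ligands passed, nor did any of the 9 in KO cells, in comparisons that called 0.745%, 0.466% and 0.624% of genes in WT and 0.00931%, 0.4% and 0.419% in KO cells for mOSM, hOSM and mLIF. Il6st read 9.74, 9.70 and 10.10 in the WT controls at 1 h and 9.45, 9.30 and 10.36 with mOSM. The mOSM effect on Il6st in WT cells was larger at 6 h than at 1 h by 2.57 ± 0.54 log2 units, with an adjusted p of 0.0011, where 12.9% of genes passed. It was 2.54, 3.13 and 2.03 in the 3 cultures. For Osmr the same difference was 1.59 ± 0.64 with an adjusted p of 0.10, and 0.00067 with culture as a block, where 30.4% of genes passed. For Lifr it was -0.69 ± 0.41 with an adjusted p of 0.30. For hOSM and mLIF the Il6st effect in WT cells was larger at 6 h by 1.53 and 1.57, with adjusted p-values of 1 and 0.77 where 0.0745% and 0.0931% of genes passed. Under the culture block the adjusted p-values were 0.033 and 0.02, where 0.94% and 1.5% passed. In KO cells the same difference for mLIF was 1.41, with adjusted p-values of 0.92 without a block and 0.046 with it, where 0.13% and 1.33% of genes passed, and was 1.68 without the KO culture of replicate 3 (adjusted p = 0.32). Without a ligand the controls of the 2 times differed by 0.04 for Osmr, -0.22 for Il6st and -0.38 for Lifr in WT cells. In KO cells they differed by 0.04, -0.31 and -0.13 in the same order. None passed, where 0.428% of genes did in WT and 0.279% in KO cells. Socs3, the feedback inhibitor of gp130, was already higher by 3.47 ± 0.34 after 1 h of mOSM in WT cells, with an adjusted p of 1.8e-08.

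Ordered by level, the 16 groups separated only in places. For Osmr the highest was WT mOSM at 6 h, 12.06 ± 0.20 (SD, n = 3), whose arrays did not overlap the next group, WT hOSM at 6 h, 11.24 ± 0.07. WT mLIF at 6 h followed at 11.17 ± 0.05 and was again clear of WT mOSM at 1 h, 10.43 ± 0.70. The 8 KO groups then followed all 8 WT groups, after a gap of 1.83 between the WT control at 1 h, 9.87 ± 0.35, and KO mLIF at 6 h, 8.05 ± 0.59. The 12 other pairs of neighbours overlapped. For Il6st the highest was WT mOSM at 6 h, 12.06 ± 0.05, clear of WT hOSM at 6 h, 11.41 ± 0.28, and the 14 other pairs of neighbours overlapped. WT mLIF, KO mLIF and KO hOSM at 6 h came next at 11.19 ± 0.23, 11.12 ± 0.95 and 10.83 ± 0.68, and the lowest was the KO control at 6 h, 9.53 ± 0.52. For Lifr all 15 pairs of neighbours overlapped. Its levels ran from 8.02 ± 0.39 in WT mLIF at 1 h to 6.89 ± 0.29 in WT mOSM at 6 h.

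The group means of the chains were also compared with each other. Over the 8 WT groups the correlation of Osmr with Il6st was 0.96, and over the 8 KO groups 0.89. Over all 16 it was 0.53, where the Osmr genotype difference enters. Lifr correlated with Il6st at -0.89 over the WT groups and 0.02 over the KO groups, and with Osmr at -0.80 and -0.27. The points share their cultures and beadchips, and the values describe these groups only. The genes whose 16 group means were most like Osmr were P2ry6 (r = 0.983), Fcgr2b (0.982) and Tnc (0.981), then Wfdc17 (0.978) and Saa3 (0.976). For Il6st they were Parp12 (0.968), Rasal2 (0.964) and Timeless (0.963), then Lpgat1 (0.960) and Fcf1 (0.959), and for Lifr they were Esco2 (0.940), Frmd6 (0.921) and Sncaip (0.890), then Sntb2 (0.889) and Ano10 (0.888). Within the 8 WT groups the closest to Osmr were AA467197 (0.995), Phf11d (0.994), Lrg1 (0.993), Nlrc5 (0.993) and Cxcl14 (0.992). The closest to Il6st were Rhoj (0.996), Plac8 (0.994), Nlgn2 (0.993), Npas2 (0.993) and Saa1 (0.992), and to Lifr they were Chd3 (0.991), Abca7 (0.985), Pcdh9 (0.984), Zhx3 (0.983) and Caln1 (0.983). Of these genes Esco2 was above background on 3 of 48 arrays, Saa1 on 4, Sncaip on 5, Npas2 on 9 and Saa3 on 19. Their correlations therefore rest mostly on values below background. Nlrc5 was above background on 20 arrays.

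Other probes of the same genes gave little further evidence. The second Il6st probe, ILMN_2452075, was dim, above background on 6 of 48 arrays. None of the 3 WT controls at 6 h was above background, against 2 of 3 arrays with mOSM and 3 of 3 with hOSM, so these differences are bounds, at least 1.14-fold for mOSM and at least 1.15-fold for hOSM. These 5 arrays were all the WT arrays on which it was above background, so it passed the filter on low values through the groups compared and no p is given. With mLIF it was above background on 0 of 3 WT arrays. The other Lifr probes were each above background on 44 of 48 arrays. Among the 3 WT arrays with mOSM at 6 h, ILMN_1242960 was above background on 2 and ILMN_2829015 on 1, so their differences rest partly on values below background. With mOSM at 6 h in WT cells ILMN_1242960 differed from control by -0.37 and ILMN_2829015 by -0.62, with adjusted p-values of 0.48 and 0.26. In KO cells these probes differed by 0.52 and 0.27 where the probe used gave -0.33, so their direction there was not shared. The dim Osmr probe ILMN_1247795 differed by 0.19 with mOSM in WT cells, where it was above background on 1 of 3 mOSM arrays (adjusted p = 0.72).

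**Figure D3:**
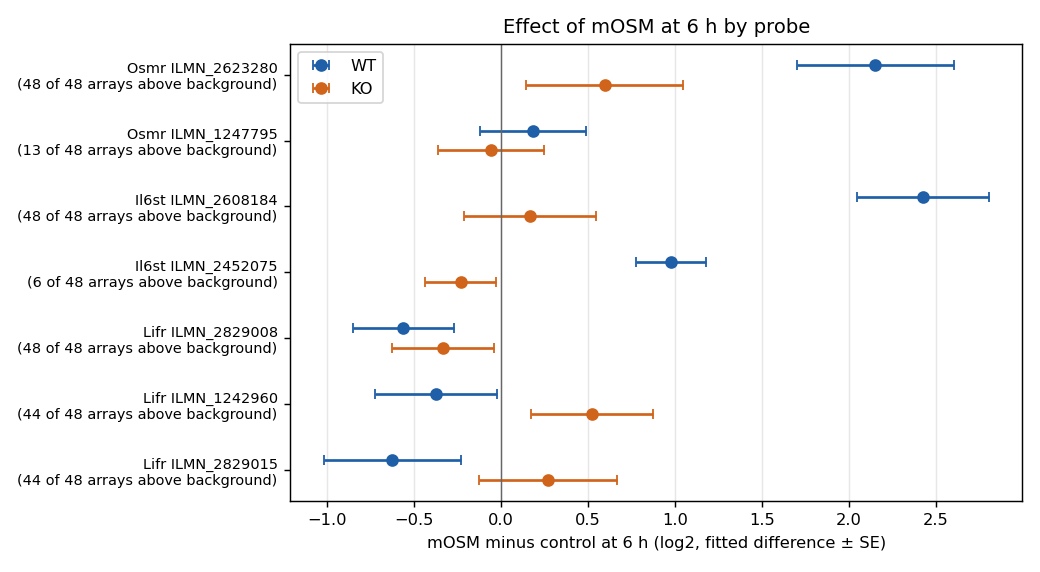
Difference from control with mOSM at 6 h (log2 units) for each probe of Osmr, Il6st and Lifr in WT and KO cells, as the fitted difference ± SE; the first probe of each gene is the one used, and most values of the second Osmr and Il6st probes lie below background. For Lifr all 3 probes lie below 0 in WT cells, from -0.62 to -0.37, and in KO cells the probe used lies at -0.33 and the other probes at 0.52 and 0.27.

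Some partners of these chains rose in WT cells as well. Over all genes in this comparison 12% were called higher and 15.6% lower. Of 10 other receptor chains of the pathway 5 were tested. With mOSM at 6 h 2 of them rose, Il31ra, which pairs with the OSMR chain to bind interleukin 31, and Cntfr, the alpha chain for ciliary neurotrophic factor. Il31ra was above background on 3 of 3 mOSM arrays and 0 of 3 controls and was at least 5.56-fold higher. It was above background on 6 of 48 arrays in all, so its call rests on values below background and no p is given. Cntfr was higher by 1.73 ± 0.52 log2 units. The list's median was 0.28 where that of all genes was -0.08. Of 12 family ligands 6 were tested, and 2 rose and 1 fell. Il6, the gene of interleukin 6, was at least 4.49-fold higher, again with 0 of 3 controls above background and so without a p. Clcf1 was higher by 0.80 ± 0.29, a size that is not exact because 1 of 3 controls was above background. Ctf1, cardiotrophin 1, was lower, at -1.88 ± 0.25 (adjusted p = 5.2e-07).

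Among the signalling genes, most calls with mOSM at 6 h in WT cells were higher than control, where over all genes 12% were called higher and 15.6% lower. Of 11 JAK and STAT genes 8 were tested, and 5 rose and 1 fell, with a median of 1.40 log2 units. The kinases Jak2 and Jak1 were higher by 2.25 ± 0.23 and 1.62 ± 0.39, the transcription factor Stat2 by 1.84 ± 0.32 and Stat3 by 1.22 ± 0.23. Tyk2, another JAK kinase, was the member that fell, at -0.60 ± 0.19. Of 12 adaptors of the ERK branch 6 were tested and 1 rose, Map2k1, at 0.88 ± 0.29, a share near that of all genes. Of 11 feedback inhibitors 10 were tested, and 7 rose and 2 fell, with a median of 1.25. Socs3 rose most, by 4.98 ± 0.34 (adjusted p = 7.6e-13), followed by the phosphatases Ptpn1, 2.49 ± 0.44, and Ptpn2, 2.07 ± 0.46. Pias1 and Pias3, inhibitors of STAT proteins, were the 2 that fell, at -0.67 ± 0.14 and -0.64 ± 0.17. Of 8 genes of receptor turnover 6 were tested, with Cblb, a ubiquitin ligase, higher by 2.19 ± 0.36 and Bace1, a membrane protease, at -0.63 ± 0.14, again near the share of all genes. All 12 STAT3 target genes listed were tested and 9 rose, with a median of 1.80. Il4ra, a chain of the interleukin 4 receptor, was at least 13.6-fold higher, with 0 of 3 controls above background. Bcl3 was higher by 3.61 ± 0.51, a size that is not exact because 1 of 3 controls was above background.

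With mOSM in KO cells 0 genes of these lists passed at 6 h without a block, where 0% of all genes passed, so this count is not particular to the lists. With culture as a block 2 genes did, Socs3, which is in the lists of feedback inhibitors and STAT3 targets, and Bcl3. In that fit 4 of all genes passed, or 0.0372%. The mOSM effect itself differed between the genotypes for 1 of 5 other receptor chains, 2 of 6 ligands, 2 of 8 JAK and STAT genes, 0 of 6 adaptors, 5 of 10 feedback inhibitors, 2 of 6 turnover genes and 4 of 12 STAT3 targets, where 9.68% of all genes passed. Socs3 had an interaction of -3.21 ± 0.48 (adjusted p = 2.1e-05) and Jak2 one of -2.16 ± 0.32 (adjusted p = 2.2e-05). Stat2, Cish and Ptpn1 had interactions of -1.77 ± 0.45, -1.95 ± 0.47 and -1.87 ± 0.62, Cblb of -1.69 ± 0.51 and Junb of -2.55 ± 0.59. Those of Ctf1 and Bace1 had the other sign, 1.71 ± 0.36 and 0.75 ± 0.20. Il31ra, Il6 and Il4ra are also in the counts above, Il31ra as the 1 other receptor chain. For these genes 0 of 6 KO arrays and 0 of 3 WT controls were above background in these groups. Their interactions therefore rest on values below background, the size is a bound and no p is given. Stat3 did not pass, at -0.93 (adjusted p = 0.065). The culture block moved 4 of these counts by more than 1.5 times, to 2 other receptor chains, 5 JAK and STAT genes, 8 feedback inhibitors and 9 STAT3 targets, in a fit that called 26.3% of all genes. With the ligands that the design assigns to LIFR, Socs3 was higher by 3.20 with hOSM and 3.27 with mLIF in WT cells and by 3.19 and 3.18 in KO cells, and Bcl3 and Junb passed in all 4 of these comparisons.

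**Figure D4:**
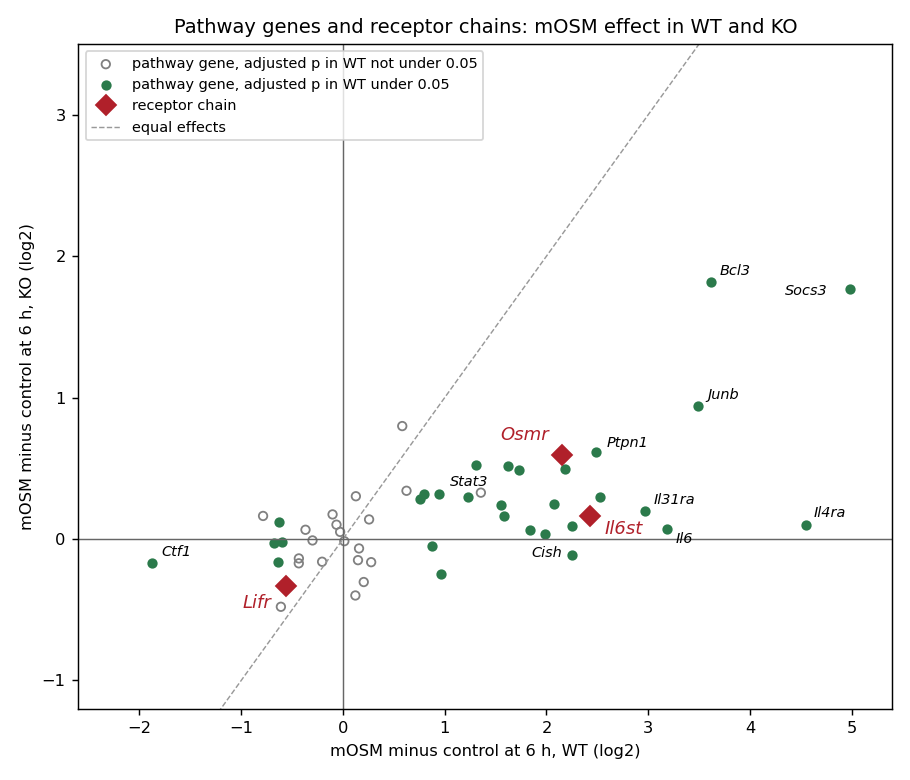
Difference from control with mOSM at 6 h (log2 units) in WT cells (horizontal axis) and KO cells (vertical axis) for the 51 tested genes of the pathway lists (circles, filled where they passed in WT cells) and the 3 receptor chains (diamonds), with a dashed line where the effects are equal. Of the 51 list genes 25 passed as higher in WT cells, where 12% of all genes did. In KO cells 0 of them passed, where 0% of all genes did. Socs3 lies at 4.98 in WT cells and 1.77 in KO cells.

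Markers of cell types were read in the same comparisons, and their part in the receptor results was not tested. With mOSM at 6 h in WT cells 12% of all genes passed as higher and 15.6% as lower. The counts of 1 marker given next lie near these shares. In WT cells at 6 h the summed intensity of the 7 adipocyte markers ran from 18804 to 25540 over the controls and from 7519 to 16815 with mOSM, where 1 of the 7 passed as lower. That of the 6 chondrocyte markers ran from 25201 to 28314 and from 11737 to 24369, with 1 lower. That of the 5 macrophage and osteoclast markers ran from 9956 to 39422 and from 8372 to 21379, with 1 higher. The 6 osteocyte markers summed to 10435 to 20682 in controls and 25402 to 33327 with mOSM, with 3 higher, and the 8 osteoblast markers to 52825 to 72189 and 40931 to 63130, with 1 lower. In KO cells the osteocyte sums ran from 12463 to 15579 in controls and from 14029 to 17471 with mOSM, 19668 to 23412 with hOSM and 19479 to 26143 with mLIF. With hOSM and mLIF in WT cells they ran from 15738 to 26636 and from 16578 to 19025. Over all arrays of each genotype, 4 of 7 adipocyte and 3 of 5 macrophage and osteoclast markers passed as lower in KO cells, where 20.4% of all genes passed in either direction. With the culture block, which called 1.86% of all genes, these counts were 1 and 2. They were 2 and 3 without the KO culture of replicate 3, where 27.3% of all genes passed.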

How the data were processed

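RNA from the 48 samples had been measured on Illumina bead arrays. The authors deposited linear intensities per probe, not normalized between arrays, with each probe's detection p-value, exported from BeadStudio per the submitters' processing notes. They also deposited a table of log2 values, for which the notes name limma. Versions and a genome build are not given in the sources used here. Of 46237 probes, 18 with repeated lines, 45281 are in the log2 table.

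Intensities were background-corrected and quantile-normalized with neqc of limma 3.58.1 in R 4.3.3, taking the negative controls that the detection p-values imply, and an offset of 16. No value lay further than 0.0286 from the deposited log2 table. Symbols came from the platform's annotation: 34885 probes had 1 symbol, 18 several and 10378 none. A probe was above background at a detection p-value under 0.01. For each gene the brightest probe above background on at least 3 arrays was kept, for 10739 genes, of which 4119 had a choice of probes. A gene below background on all arrays of a group has only a bound, the mean of the brighter group against the lowest signal above background.

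One limma model with 16 group means was fitted to all genes, with Benjamini-Hochberg adjustment within each comparison and a threshold of 0.05. With 3 arrays per group, their number limits the precision. Replicate numbers mark cultures thawed together per the labels. Deviations from the group mean correlated at -0.32 between numbers of a genotype, a negative value that means of 3 arrays force when cultures differ. Those of arrays of the same culture correlated at 0.66 on average and at 0.30 at least. Those of the same number in the other genotype correlated at 0.00. The numbers therefore pair arrays within a genotype, and the fit with culture as a block (replicate block) is given where it changes a call. Arrays were grouped by the labels. No arrays were duplicates, the closest pair correlating at 0.992.

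The alternatives were the deposited log2 values, no background correction, median scaling, stricter and no filters on dim probes, blocks for culture and beadchip, array weights, a trended variance, the compared groups alone, single thawing days and beadchips, other probes, and leaving out each array or the KO culture of replicate 3. The fit was tested on simulated data. The receptor chains, the gene lists and the named genes were chosen with earlier results of these data known. The named genes are the members, for each list up to 3 genes with the largest called change with mOSM at 6 h in WT cells and in the interaction, Socs3 and Stat3, and the 5 genes closest to each member in pattern. Tyk2, Pias1, Pias3 and the 1 h values of Socs3 were named after their values were seen. Figures were drawn with matplotlib 3.10.9 and Python 3.11.15.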

Additional observations from a re-analysis of the deposited data

Results flagged for a closer look

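The smaller mOSM effect on Il6st in KO cells was picked out because the effects of the genotypes differed by a direct test, with an interaction at 6 h of -2.26 log2 units and an adjusted p of 0.0047 by limma. The mOSM effect on Il6st in WT cells was picked out because it differed between the times, being larger at 6 h than at 1 h by 2.57 log2 units with an adjusted p of 0.0011. Groups of 3 arrays were too small for a test of single outlying arrays.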

How the results depend on the processing

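Over 2191 recomputed values 0 reversed a call, 2036 kept their side of the threshold or moved by less than the replicate spread, 80 gained a call, 28 lost one and 47 moved further; no cause was tested. With no background correction Osmr with hOSM in WT cells (1.22), the Osmr mOSM interaction (-1.66) and the Il6st genotype difference (-0.33) gained a call. The last also passed with a filter on 24 arrays and with a trended variance (-0.36). With culture as a random block it did not pass (limma adjusted p = 0.74). Il6st with mLIF in WT cells lost its call under median scaling (1.37), with no filter (1.56) and with the beadchip block (1.50), as did Il6st with mLIF in KO cells with the beadchip block (1.34) and with the compared groups alone (1.59). With the replicate block, which pairs arrays of a culture, calls were gained by Osmr with hOSM (1.33) and mLIF (1.26) in WT and (1.16 and 1.22) in KO cells, the Osmr mOSM interaction (-1.55), Lifr with mOSM in WT cells (-0.56) and Il6st with hOSM in KO cells (1.30). Apart from the ligand and time contrasts given above, the block changed no other call on these chains at the probes used. Array weights gave calls to Osmr with hOSM (1.30) and mLIF (1.20) in WT cells, the Osmr interaction (-1.79), Lifr with mOSM (-0.57) and Il6st with hOSM in KO cells (1.41). Without the KO culture of replicate 3 the Osmr interaction (-2.02) and Il6st with hOSM in KO cells (1.38) passed. Osmr with hOSM (1.33) and mLIF (1.26) in WT cells passed with the compared groups alone. On the first thawing day alone these were 1.47 and 1.33 and passed, as did the Osmr interaction (-2.09), Lifr with mOSM (-0.57) and Il6st with hOSM in KO cells (1.38). The second thawing day, with 1 array per group and no test, gave Osmr in KO cells 1.54 with mOSM, 1.85 with hOSM and 1.86 with mLIF, an Osmr interaction of -0.49, Lifr in KO cells 0.62 with hOSM and 0.43 with mLIF, and an Il6st genotype difference of -1.11. Within single beadchips, without a test, Osmr in KO cells was -0.24 with mOSM and 1.89 with hOSM. Lifr with hOSM was -0.80 in WT and 0.89 in KO cells. Il6st was 2.05 with mLIF in WT and 0.27 with hOSM in KO cells. The genotype differences within a beadchip cover only the conditions it held in both genotypes. With mOSM at 6 h they were -4.29 for Osmr and -2.29 for Il6st, where all arrays of that condition gave -4.63 and -2.36. In controls at 1 h they were -2.74 for Osmr and -1.11 for Lifr. With hOSM and mLIF at 6 h Lifr gave 0.39. The second Il6st probe gave -0.22 for the genotype difference, 0.38 with mLIF in WT and 0.29 in KO cells, and the second Osmr probe 0.19 with mOSM in WT cells; most of these arrays were below background at those probes, so the values are not exact and check nothing. Leaving out single arrays moved the Il6st genotype difference between -0.42 and -0.30, the Osmr interaction between -2.04 and -1.13, Il6st with mLIF in KO cells between 1.16 and 2.10 and Il6st in WT cells between 1.62 and 1.90 with hOSM and between 1.44 and 1.68 with mLIF, each crossing the threshold. Counts of list genes whose mOSM effect differed between the genotypes moved from 1 to 2 other receptor chains, 2 to 5 JAK and STAT genes, 5 to 8 feedback inhibitors and 4 to 9 STAT3 targets with the replicate block. Without the KO culture of replicate 3 they were 4 JAK and STAT genes and 9 STAT3 targets, and with median scaling 2 feedback inhibitors and 0 turnover genes. The 24-array filter left 0 other receptor chains and 1 ligand in that count, and 1 of each in the WT mOSM count, where median scaling left 0 adaptors.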
